A study of Mus musculus with 40 samples.

Results

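The comparison between 3-month-old and 6-month-old CamKIIδC TG mice was examined across all miRNAs of the hippocampal CA1 region. The members were the libraries whose titles give CamKIIδC transgenic, which were 20 of the 40 libraries of the series, 9 at 3 months and 11 at 6 months of age. The remaining 20 libraries, 5 at 3 months and 15 at 6 months, were of wild-type control mice and were used only beside results in TG mice. All mice had a C57Bl/6J background, the wild-type control mice were littermates, and both sexes were used. TG mice carry a transgene for the δC form of calcium/calmodulin-dependent protein kinase II, and the study uses them as a model of heart failure. The promoter that drives the transgene is not given in the sources used here, and miRNA counts do not measure the transgene. Each library was made from 1 mouse. The study asked which miRNAs change between these ages in TG mice, and it named 22 miRNAs in its text as decreasing. The remaining miRNAs are the subject here. Members of the study's set that its text does not name were not set apart and may be among them.

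A miRNA is cut as a duplex from a hairpin, which is itself part of a longer primary transcript, and is loaded into an Argonaute protein. The arm nearer the 5′ end of the hairpin is named 5p and the other 3p, and commonly one arm is loaded and kept while the other is degraded. The seed, bases 2 to 8 of the mature miRNA, pairs with target mRNAs and lowers their stability or translation, so that miRNAs with one seed share many predicted targets. In the hippocampus, miR-128, miR-9, miR-124 and miR-218 are abundant in neurons, miR-219 and miR-338 promote oligodendrocyte maturation, and miR-126 comes from endothelial cells.

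The mature sequences of the miRNAs on which the results turn are given 5′ to 3′ with the seed in capitals. They were taken from RefSeq (GRCm38.p6), in which 541 of the 629 tested miRNAs were matched. The first 9 were upregulated at 6 months in TG mice, and the pairs miR-204-5p with miR-211-5p and miR-24-1-5p with miR-24-2-5p each share a seed.
miR-204-5p: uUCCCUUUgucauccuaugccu
miR-211-5p: uUCCCUUUgucauccuuugccu
miR-24-1-5p: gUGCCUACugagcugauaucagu
miR-24-2-5p: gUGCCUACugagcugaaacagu
miR-99a-5p: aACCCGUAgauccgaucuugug
miR-126a-3p: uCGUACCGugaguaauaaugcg
miR-139-5p: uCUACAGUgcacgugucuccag
miR-434-5p: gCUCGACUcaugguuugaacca
miR-495-3p: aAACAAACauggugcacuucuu
The next 8 were downregulated. The pair miR-190a-5p and miR-190b-5p shares a seed, and the whole of miR-101c lies within miR-101a-3p, starting at its base 2.
miR-338-3p: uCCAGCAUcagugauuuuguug
miR-101a-3p: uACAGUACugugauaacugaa
miR-101c: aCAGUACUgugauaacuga
miR-298-5p: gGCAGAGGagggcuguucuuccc
miR-190a-5p: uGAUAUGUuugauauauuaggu
miR-190b-5p: uGAUAUGUuugauauuggguug
miR-15a-5p: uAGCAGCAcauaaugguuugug
miR-3535: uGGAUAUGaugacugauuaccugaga

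Some libraries stood apart. Total miRNA counts ranged from 8888162 to 22892729 at 3 months and from 1926108 to 16612207 at 6 months, and were higher at 3 months by 0.24 on the log10 scale (two-sided exact permutation test, p = 0.0191). Levels below are in CPM normalized by TMM, in which counts are scaled to the miRNA total of the library times a composition factor of 0.662 to 1.41. A count of 3 reads corresponds to 0.0928 to 2.07 CPM on this scale and covers counting error only. The first principal component held 56.3% of the variance of the 629 tested miRNAs and divided the mice within each age, since 3-month mice 4, 5, 6, 7 and 9 and 6-month mice 5, 6, 7, 10 and 11 scored above 0. Over the 20 mice, this score correlated with the TMM factor (Pearson r = 0.979, Spearman rho = 0.985), the number of miRNAs with a read (0.914 and 0.944), the share of counts in the top 10 miRNAs (-0.922 and -0.883) and the total miRNA count (0.794 and 0.792). For these 4 relations, adjusted permutation p-values were 6e-05 or smaller, and without the 2 mice farthest from the median of each trait r was 0.977, 0.898, -0.892 and 0.699. Within the ages, r was 0.996, 0.955, -0.957 and 0.869 at 3 months (n = 9) and 0.954, 0.908, -0.875 and 0.681 at 6 months (n = 11). The second held 13.1% and divided the ages, except that 3-month mouse 8 scored -3.17, within the 6-month range of -8.46 to -1.98. The other 3-month mice scored 1.23 or higher. For 86 of the 99 miRNAs called below, mouse 8 lay nearer the 6-month median than the median of the other 3-month mice, against 3 to 27 of the 99 for each other 3-month mouse, although the 99 were selected for differing between the ages. Over all 629 miRNAs, this was so for 481 in mouse 8, for 403 to 420 in mice 1, 2 and 3 and for 117 to 173 in the other 5. The labels give no sequencing batch. Of 42 synthetic spike-in oligos, 8 passed the same thresholds between the ages. This was a larger share than that of the miRNAs, of which 99 of 629 passed (15.7%). With 1 factor estimated from the spike-in oligos, 91 of the 99 miRNAs were also called, and with each library thinned to the smallest, 71 of the 75 that could be tested. These fits do not separate depth from age, which cannot be told apart in this design.

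**Figure D1:**
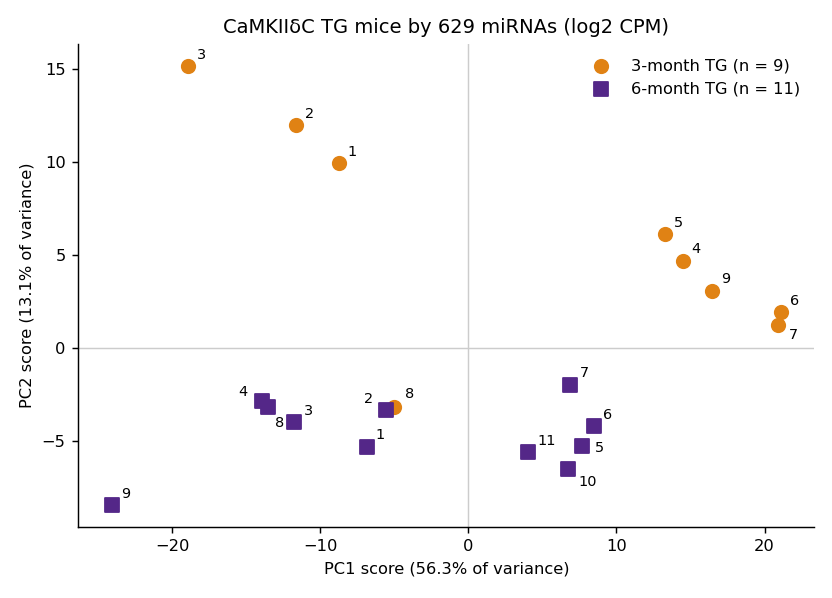
Principal component scores of 20 CamKIIδC TG mice (number: mouse within its age), from log2 CPM of 629 miRNAs, with PC1 on the x axis and PC2 on the y axis. 3-month mouse 8 lies at a PC2 score of -3.17 among the 6-month mice, and the other 3-month mice lie at 1.23 or above.

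The labelled tissue was checked against marker miRNAs. The summed level of 4 neuronal miRNAs was 161813 to 303819 CPM at 3 months and 187345 to 361639 CPM at 6 months, of which miR-128-3p alone held 80130 to 217470 CPM and 127736 to 281367 CPM. The medians of miR-9-5p, miR-124-3p and miR-138-5p were lower at 6 months. They were 82574, 4882 and 368 CPM at 3 months and 72879, 2110 and 363 CPM at 6 months. The liver miRNA miR-122-5p was at 7.99 to 32.1 CPM over all TG mice. The cardiac miR-208a-3p and miR-208b-3p had no read in 8 and 7 of the 9 mice at 3 months, and none in the 11 mice at 6 months. The other 4 of 6 heart and skeletal muscle markers were present. The summed level of these markers was 610 to 1663 CPM at 3 months and 383 to 883 CPM at 6 months. miR-1a-3p alone held 582 to 1639 CPM and 355 to 866 CPM.

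Of 629 tested miRNAs, 99 were significantly altered between 3 and 6 months in TG mice (15.7% of those tested), by the quasi-likelihood test of edgeR at an adjusted p (Benjamini-Hochberg) under 0.05 with log2FC beyond 0.26 in either direction. Log2FC is the level at 6 months over that at 3 months. Upregulation was found for 47 (7.47%) and downregulation for 52 (8.27%). Of the 22 miRNAs that the study named, 8 were among the downregulated, and all 22 had a log2FC under 0. However, the study chose them on libraries of this same series, so their direction here is not an independent result. The group sizes that the study states for this comparison differ from those used here, so the libraries compared may not be the same. The other 91 comprised all 47 upregulated and 44 downregulated miRNAs. The mean level was at least 10 CPM for 70 of the 99, of which 39 were upregulated and 31 downregulated. Scaling by the total miRNA count rather than by TMM lowered the median log2FC of all miRNAs from -0.09 to -0.29 and gave 32 upregulated and 76 downregulated miRNAs. All 99 kept their direction in each alternative that tested them, and 66 were also called when each of the 20 mice was left out in turn. Of those named below, miR-15a-5p, miR-125b-5p, miR-132-5p, miR-190a-5p, miR-296-5p and miR-344d-3-5p passed in 14 to 18 of these 20 fits. In 7 to 12 of them passed miR-7b-5p, miR-23a-3p, miR-136-3p, miR-144-3p, miR-150-5p, miR-190b-5p, miR-326-3p, miR-467c-5p, miR-493-5p and let-7f-2-3p, and miR-218-2-3p passed in 2.

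Without 3-month mouse 8, 131 miRNAs were called, 64 upregulated and 67 downregulated, and all 99 were among them. Mouse 8 was set apart because it lay with the 6-month mice in these data, so leaving it out favors larger differences here and below. The levels of 3-month and 6-month mice did not overlap for 2 miRNAs (0.318%), miR-3535 and miR-1191a. Without mouse 8, this was so for 27 miRNAs (4.29%), all of which were called with it. miR-3535 was placed at Gm24148, an entry not named as a Mir gene, in an exon of Ncl, the gene of nucleolin, on the minus strand (chr1:86351981-86352127, GRCm38). Whether its reads come from a miRNA hairpin was not tested. The level of miR-3535 was 79.0, 203 and 418 CPM (lowest, median and highest) at 3 months and 37.9, 60.7 and 74.5 CPM at 6 months. miR-1191a, named because of its levels, reached 9.576 CPM at most at 3 months and was at 9.579 CPM or more at 6 months. Without 3-month mice 1, 2 and 3, which lay farthest from the others on the second component, 315 of 662 miRNAs were called, a setting added after the data were examined.

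**Figure D2:**
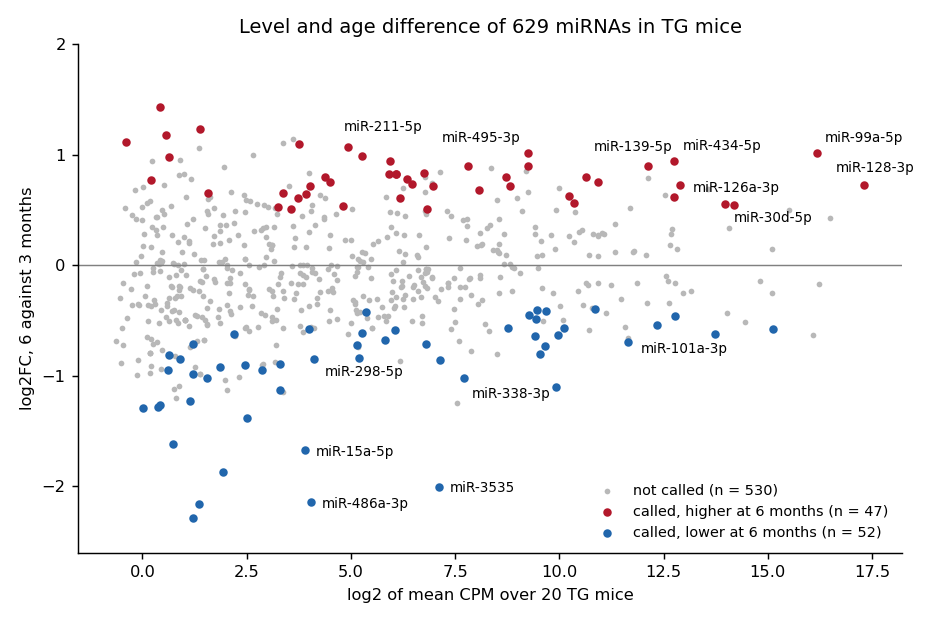
Log2FC between 6 and 3 months (y axis) against the log2 of the mean CPM over 20 TG mice (x axis) for 629 miRNAs. Red points are the 47 miRNAs called higher at 6 months and blue points the 52 called lower, with 14 named.

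The 5 most abundant upregulated miRNAs were miR-128-3p, miR-99a-5p, miR-218-5p, miR-30d-5p and miR-126a-3p. miR-128-3p, which restrains neuronal excitability, was at 80130, 103957 and 217470 CPM (lowest, median and highest) at 3 months and at 127736, 188271 and 281367 CPM at 6 months. Its log2FC was 0.73 (SE, the standard error, 0.21 and adjusted p = 0.0210 by edgeR's quasi-likelihood test). The highest 3-month value was that of mouse 8, and 3 of the 9 mice at 3 months lay above the lowest 6-month mouse. miR-128-3p comes from Mir128-1 in an intron of R3hdm1 on chromosome 1 and Mir128-2 in an intron of Arpp21 on chromosome 9, whose reads cannot be told apart.

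miR-99a-5p, from an intron of the noncoding Mir99ahg (chr16:77598936-77599000), was at 29925, 37768 and 93189 CPM at 3 months and at 55621, 99838 and 121427 CPM at 6 months. The ages overlapped in 2 of the 9 mice at 3 months, 1 of them mouse 8. miR-218-5p, which derives from introns of the axon guidance genes Slit2 and Slit3, rose from a median of 14684 to 21282 CPM (log2FC 0.55, SE 0.16). It overlapped more widely, with 8 of 9 mice at 3 months above the lowest 6-month mouse. Both minor arms of its hairpins, miR-218-1-3p and miR-218-2-3p, were also called upregulated, with log2FC of 1.12 and 0.77, but at medians of at most 1.38 CPM. With these 3, the group of miR-135, miR-137, miR-138, miR-153 and miR-218, which act at synapses, had 3 upregulated and 0 downregulated of 15 tested members. The share called was 20%, against 15.7% of all tested miRNAs. The median log2FC of the group was 0.02, against -0.09 over all tested miRNAs.

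miR-30d-5p and miR-30a-5p were upregulated, with medians of 11508 and 18403 CPM for miR-30d-5p and of 4549 and 7531 CPM for miR-30a-5p at 3 and 6 months. Their log2FC were 0.55 and 0.62 (SE 0.14 and 0.17). In each, mouse 8 was the one 3-month mouse above the lowest 6-month mouse, and without it their log2FC were 0.70 and 0.81. The other 9 of 11 tested members of the miR-30 family were not called, so that 18.2% were called, against 15.7% of all tested miRNAs. miR-139-5p, from an intron of Pde2a (chr7:101475376-101475443), had the smallest adjusted p among the upregulated miRNAs that are named here. It was at 2261, 2890 and 4490 CPM at 3 months and 3986, 5489 and 6506 CPM at 6 months, a log2FC of 0.90 (SE 0.13, adjusted p = 0.000158 by edgeR). Only mouse 8 at 3 months overlapped the 6-month mice.

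**Figure D3:**
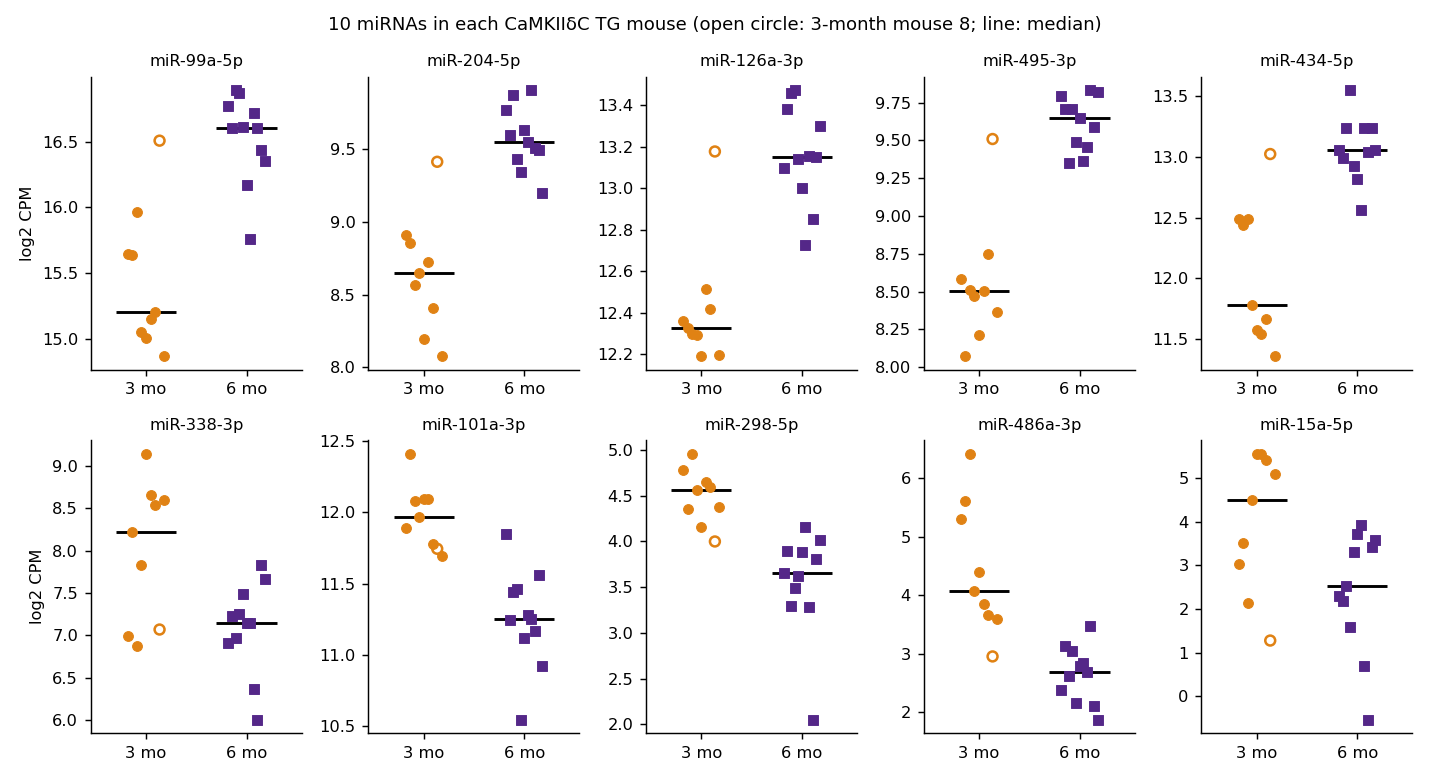
Log2 CPM (y axis) of 10 miRNAs in each TG mouse at 3 months (circles, n = 9) and 6 months (squares, n = 11), with the median of each age as a line and 3-month mouse 8 as an open circle. In the upper 5 miRNAs mouse 8 lies with the 6-month mice.

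Among the glial miRNAs, miR-338-3p and miR-219a-2-3p were downregulated. miR-338-3p comes from an intron of Aatk (chr11:120014765-120014862) and supports oligodendrocyte differentiation. It was at 118, 298.04 and 565 CPM at 3 months and at 64.3, 142 and 227 CPM at 6 months, with a log2FC of -1.02 (SE 0.28, adjusted p = 0.0157 by edgeR). The lowest 3-month mice lay within the 6-month range, which 4 of 9 did not exceed. miR-219a-2-3p fell by 0.57 on the log2 scale (SE 0.15), from a median of 1235 to 847 CPM. The 5p arm, miR-219a-5p, had a log2FC of -1.13 at far lower medians of 6.46 and 1.99 CPM and was not called. Of 5 tested members of miR-219 and miR-338, 2 were called downregulated and 0 upregulated (40% called, against 15.7% of all tested miRNAs). The median log2FC of the 5 was -0.57. The summed level of 3 oligodendrocyte markers, 2 of which are these miRNAs, was 1151 to 2203 CPM at 3 months and 719 to 1318 CPM at 6 months. In tissue, fewer cells of a type and less RNA per cell cannot be told apart.

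miR-204-5p and miR-211-5p lie in introns of the channel genes Trpm3 (chr19:22750605-22750672) and Trpm1 (chr7:64205806-64205911), and miR-204 is abundant in the choroid plexus epithelium. Both rose, as the called 2 of 3 tested members (66.7%, against 15.7% of all tested miRNAs). miR-204-5p was at 269, 402 and 683 CPM at 3 months and at 589, 751 and 960 CPM at 6 months (log2FC 0.89, SE 0.16, adjusted p = 0.000602 by edgeR). miR-211-5p was at 10.6, 17.6 and 34.8 CPM and at 29.6, 38.0 and 53.5 CPM. In both, mouse 8 alone overlapped. miR-448-3p, the choroid plexus marker that is not of this family, was at 6.50, 7.41 and 8.76 CPM at 3 months and 5.68, 7.80 and 13.8 CPM at 6 months, and overlapped. The 8 tested miRNAs hosted by Htr2c, a serotonin receptor gene with high choroid plexus expression, had a median log2FC of 0.51 and 0 calls, with 6 above 0. The highest of them, miR-1298-5p, had a log2FC of 0.87 (adjusted p = 0.0744 by edgeR), and without mouse 8 it was 1.07 (adjusted p = 0.0250 by edgeR). The second fit gives no separate support, since mouse 8 was set apart for lying with the 6-month mice in these data. The part of the amount of choroid plexus in these results was not tested.

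Of 6 tested vascular miRNAs, miR-126a-3p was called (16.7%, against 15.7% of all tested miRNAs). It derives from an exon of Egfl7 (chr2:26591357-26591429) and maintains the endothelium. It was at 4668, 5126 and 9264 CPM at 3 months and 6782, 9085 and 11363 CPM at 6 months, with a log2FC of 0.73 (SE 0.14, adjusted p = 0.00146 by edgeR), and mouse 8 alone overlapped. The other arm, miR-126a-5p, had a log2FC of -0.33, and miR-143-3p and miR-145a-5p of mural cells had 0.28 and 0.03, none of them called. The sum of 4 vascular markers was 9404 to 16220 CPM at 3 months and 12768 to 20755 CPM at 6 months.

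The erythroid miRNAs moved in opposite directions. miR-451a rose from 148, 181 and 341 CPM to 216, 309 and 434 CPM (log2FC 0.68, SE 0.16, adjusted p = 0.00670 by edgeR), and 2 of the 9 mice at 3 months overlapped. miR-144-3p, which is cut from the same primary transcript on chromosome 11 (Mir144 from 78073005 to 78073070, Mir451a from 78073170 to 78073241), was downregulated with a log2FC of -0.98 at a median of 2.21 and 1.52 CPM. miR-486a-5p, the loaded arm of a further erythroid hairpin, was at 228 to 1121 CPM at 3 months and 302 to 827 CPM at 6 months with a log2FC of -0.02. Its passenger arm miR-486a-3p was among the largest decreases. In all, 1 of 7 tested erythroid miRNAs was upregulated and 3 were downregulated (57.1% called, against 15.7% of all tested miRNAs). The sum of 4 erythroid markers was 431 to 1305 CPM at 3 months and 626 to 1191 CPM at 6 months.

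Of 8 tested leukocyte and inflammatory miRNAs, both arms of miR-146b, a feedback inhibitor of inflammatory signaling, were upregulated (25% called, against 15.7% of all tested miRNAs). Both calls come from a single hairpin, and miR-146b-3p was at low means of 2.27 and 3.54 CPM at 3 and 6 months. miR-146b-5p was at 773, 957 and 1680 CPM at 3 months and 1275, 1600 and 1891 CPM at 6 months (log2FC 0.56, SE 0.13), with mouse 8 the highest at 3 months and the only one to overlap. The microglial markers were low in both ages, with a sum of 21.3 to 71.3 CPM at 3 months and 26.96 to 71.6 CPM at 6 months. miR-150-5p of lymphocytes fell by 0.71 on the log2 scale (SE 0.23, adjusted p = 0.0418 by edgeR), from a median of 151 to 71.5 CPM, with the ages overlapping.

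In muscle miRNAs, miR-1a-3p was the 1 of 5 tested members called (20%, against 15.7% of all tested miRNAs). It is one of the miRNAs the study named. The median log2FC of the 5 was -0.80. miR-133a-3p was at 3.04 to 33.9 CPM and 2.70 to 14.7 CPM with a log2FC of -1.14 (adjusted p = 0.0958 by edgeR), and without 3-month mice 1, 2 and 3 the median of the group was -0.33.

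**Figure D4:**
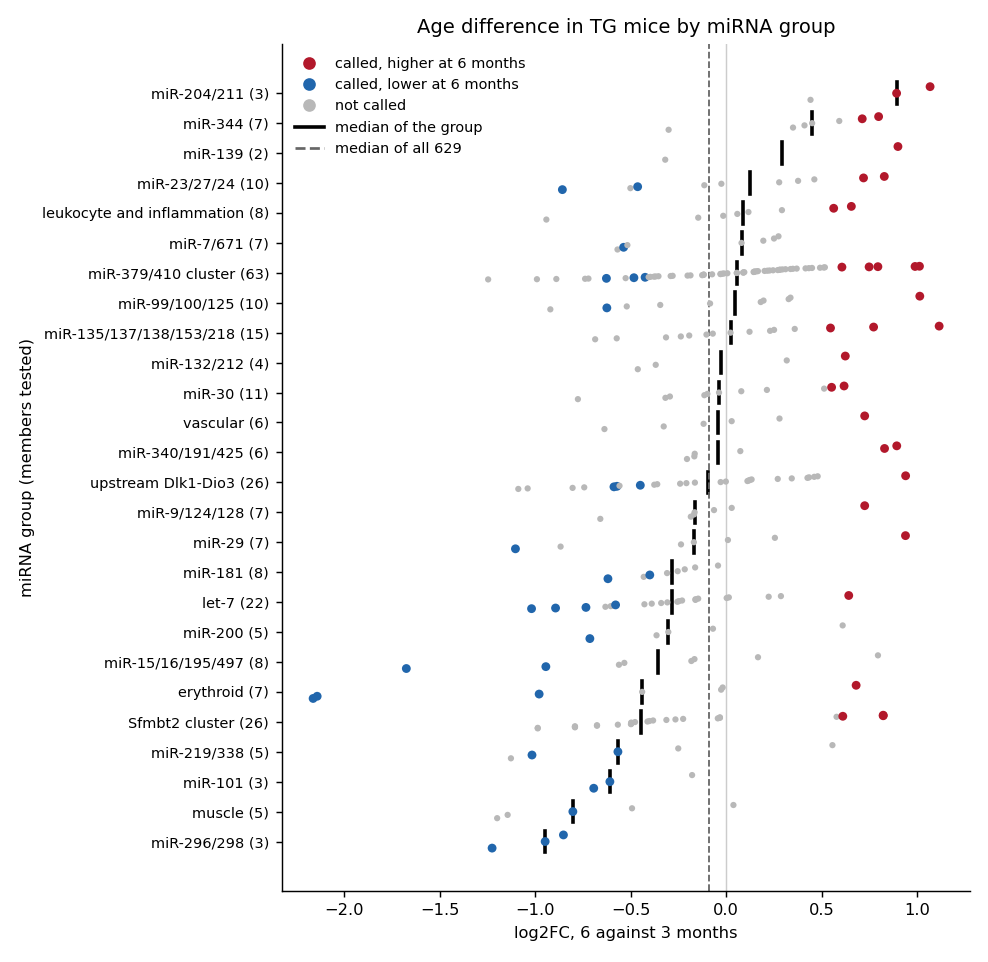
Log2FC between 6 and 3 months (x axis) of the tested members of 26 miRNA groups with at least 1 called member (y axis, number tested in parentheses). Red and blue points passed the test, black lines are group medians and the dashed line is the median of all 629 miRNAs at -0.09.

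The imprinted Dlk1-Dio3 locus on chromosome 12 encodes many brain miRNAs, expressed from the maternal allele and required for dendrite growth and synaptic scaling. In its miR-379/410 cluster, 5 of 63 tested miRNAs were upregulated (7.94%) and 3 downregulated (4.76%), against 7.47% and 8.27% of all tested miRNAs, with a median log2FC of 0.06 that was -0.01 with RLE size factors and -0.20 with the total miRNA count. The largest increase was that of miR-495-3p (chr12:109718754-109718816), at 269, 363 and 729 CPM at 3 months and 652, 803 and 910 CPM at 6 months (log2FC 1.01, SE 0.16, adjusted p = 0.000292 by edgeR). Mouse 8 alone overlapped. miR-758-3p, miR-369-5p and miR-543-3p had log2FC of 0.99, 0.79 and 0.75. In contrast, both arms of Mir382 (chr12:109733771-109733846), an exon of Mirg, were downregulated, with a log2FC of -0.63 (SE 0.16) for miR-382-5p, which was at 761, 1121 and 2114 CPM and at 571, 785 and 1041 CPM. Mouse 3 was the highest at 3 months, and 2 of 9 mice at 3 months were within the 6-month range.

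In the upstream part of this locus, 1 of 26 tested miRNAs was upregulated and 3 were downregulated (15.4% called, against 15.7% of all tested miRNAs). miR-434-5p (chr12:109594506-109594599) rose from 2623, 3526 and 8335 CPM to 6061, 8515 and 11991 CPM (log2FC 0.94, SE 0.20, adjusted p = 0.00234 by edgeR), again with an overlap of mouse 8 alone. miR-341-3p, miR-136-3p and miR-493-5p fell by 0.45, 0.57 and 0.59 on the log2 scale.

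Other clusters with parental imprinting differed. The paternally expressed miR-296 and miR-298 at the Gnas locus (chromosome 2, Mir296 from 174267047 to 174267125 and Mir298 from 174267504 to 174267585) were downregulated in all 3 tested arms, with a median log2FC of -0.95. miR-298-5p was at 16, 23.7 and 31.1 CPM at 3 months and at 4.15, 12.6 and 17.9 CPM at 6 months (log2FC -0.85, SE 0.19, adjusted p = 0.00373 by edgeR), and 2 of 9 mice at 3 months were within the 6-month range. miR-296-3p and miR-296-5p were at medians of 8.46 and 3.76 CPM at 3 months, with log2FC of -0.95 and -1.23. In the Sfmbt2 cluster, a rodent-specific array in an intron of an imprinted gene, the median of 26 tested members was -0.44, and 22 were below 0. Yet the called members were 3 upregulated 5p arms, miR-467a-5p, miR-467b-5p and miR-467c-5p, with log2FC of 0.82, 0.82 and 0.61. They were 11.5% of the tested members, against 15.7% called of all tested miRNAs. The counts of miR-467a-5p and miR-467b-5p differed by 1 read in 1 of the 20 TG mice and were equal in the others, so the pair is not 2 separate measurements. The calls in this cluster depended on the setting, with 0 upregulated and 2 downregulated members when scaled by the total miRNA count, 3 and 5 in the joint fit of both genotypes, 4 and 7 with 2 RUVr factors in DESeq2, and 2 and 18 without 3-month mice 1, 2 and 3. Of 7 tested members of miR-344, a family clustered on chromosome 7, miR-344c-3p and miR-344d-3-5p were upregulated (log2FC 0.80 and 0.71) and the median was 0.45. The share called in this family was 28.6%, against 15.7% of all tested miRNAs.

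Several miRNAs cut from one primary transcript were called in opposite directions. In both clusters of miR-23, miR-27 and miR-24, the upregulated miRNA was a 5p arm and the downregulated one a 3p arm. These contrasts are thus also contrasts between arms. On chromosome 13, miR-27b-3p (Mir27b, 63300712 to 63300784) was downregulated with a log2FC of -0.46, and miR-24-1-5p (Mir24-1, 63301208 to 63301275) was upregulated with 0.83, at 33.6, 37.9 and 72.4 CPM at 3 months and 45.6, 78.3 and 101 CPM at 6 months. On chromosome 8, miR-23a-3p (Mir23a, 84208518 to 84208592) fell by 0.86 on the log2 scale and miR-24-2-5p (Mir24-2, 84208815 to 84208921) rose, from a median of 87.0 to 157 CPM (log2FC 0.72, SE 0.17). miR-23a-3p and miR-27b-3p are among the decreases that the study named. The cluster members thus gave 2 upregulated and 2 downregulated of 10 tested (40% called, against 15.7% of all tested miRNAs).

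On chromosome 1, miR-29c-5p (Mir29c, 195037547 to 195037634) rose from 30.6, 37.9 and 63.6 CPM to 51.9, 79.5 and 105 CPM (log2FC 0.94, SE 0.16, adjusted p = 0.000561 by edgeR), whereas miR-29b-3p was downregulated. The latter is cut from Mir29b-2 (195037040 to 195037120) of the same transcript and from Mir29b-1 on chromosome 6. The other arm of Mir29c, miR-29c-3p, had a log2FC of -0.87 and was not called. miR-125b-5p, from Mir125b-2 in the Mir99ahg intron and from Mir125b-1 on chromosome 9, fell by 0.62 while miR-99a-5p rose. On the X chromosome, in an intron of Huwe1, both arms of Mir98 and let-7f-2-3p were downregulated, with log2FC of -1.02 and -0.73 for miR-98-3p and miR-98-5p and -0.89 for let-7f-2-3p. The sister arm let-7f-1-3p, from chromosome 13, was upregulated with a log2FC of 0.64 at medians of 11.4 and 18.2 CPM, and mouse 8 alone overlapped. In this paragraph, miR-29b-3p, miR-29c-3p, miR-125b-5p and miR-98-5p are among the miRNAs that the study named.

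Among the other downregulated miRNAs, miR-101a-3p, which targets the histone methyltransferase Ezh2, was at 3308, 4005 and 5442 CPM at 3 months and 1497, 2445 and 3682 CPM at 6 months (log2FC -0.69, SE 0.14, adjusted p = 0.00211 by edgeR). The lowest 3 of 9 mice at 3 months were within the 6-month range. miR-101c had a log2FC of -0.61, but its reads cannot be told apart from shortened reads of miR-101a-3p. miR-101b-3p had a log2FC of -0.18 and was not called. miR-7b-5p, which binds the circular RNA Cdr1as, fell by 0.54 from a median of 5811 to 4317 CPM (SE 0.17, adjusted p = 0.0387 by edgeR). miR-15a-5p, a regulator of the cell cycle in an intron of Dleu2, was at 2.42, 22.4 and 46.9 CPM at 3 months and at 0.691, 5.76 and 15.1 CPM at 6 months. Mouse 8 was the lowest at 3 months, and 4 of 9 mice at 3 months were within the 6-month range. miR-3968 and miR-3963 had log2FC of -0.84 and -0.72.

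Of the activity-regulated miR-132 and miR-212, which share one transcript, miR-132-5p was upregulated, at 593, 978 and 1376 CPM at 3 months and 934, 1332 and 2193 CPM at 6 months (log2FC 0.62, SE 0.19, adjusted p = 0.0253 by edgeR). The other arm, miR-132-3p, had a log2FC of 0.32 and miR-212-5p and miR-212-3p had -0.37 and -0.46, and these 3 were not called. miR-425-5p and miR-340-3p were upregulated with log2FC of 0.83 and 0.89 (SE 0.16 and 0.15), and in both mouse 8 alone overlapped.

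The arms of 177 hairpins were compared within each mouse as the log2 ratio of 5p to 3p reads, with 1 read added to each, which does not depend on the scaling between libraries. The ratio differed between the ages in 31 hairpins (17.5%, limma, adjusted p under 0.05 and a difference beyond 0.26), with 24 ratios higher and 7 lower at 6 months. The median difference over all 177 was 0.09. For miR-486a, the ratio was 3.71, 4.16 and 5.68 (lowest, median and highest) at 3 months and 5.66, 6.14 and 6.52 at 6 months, a difference of 1.86 (SE 0.21, adjusted p = 1.68e-06 by limma). Mouse 8 alone overlapped. The ratio of miR-486b differed by 1.95, but its 5p count exceeded that of miR-486a by only 2.66% to 5.46% in every TG mouse, so the pair may share reads.

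The levels of the single arms show which moved. In miR-486a the 3p arm was called lower (log2FC -2.14), from 7.76, 16.9 and 85.5 CPM to 3.67, 6.48 and 11.1 CPM, and the 5p arm was not called. In miR-99a, miR-434, miR-369 and miR-29c, the ratios differed by 1.98, 1.61, 1.82 and 1.58, of which that of miR-369 was called in 11 of the 20 fits without 1 mouse and the others in all 20. Their 5p arms were called higher, while their 3p arms had log2FC of -0.92, -0.56, -1.25 and -0.87 and were not called. The ratio of miR-99a rests on a 3p arm at a median of 2.86 and 1.92 CPM, and with 5 reads added to each arm its difference was 1.61. Of the ratios that were lower at 6 months, those of miR-340 and miR-493 differed by -1.07 and -1.02 (SE 0.30 and 0.23), with the 3p arm of miR-340 called higher and the 5p arm of miR-493 called lower. Those of miR-12184, miR-5129 and miR-187 differed by -1.28, -1.14 and -0.97, with miR-5129 called in 12 of the 20 fits without 1 mouse.

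Of 169 hairpins with both arms tested, 92 had log2FC of one sign in both arms and 77 of opposite signs. Both arms were called in 5 hairpins, in the same direction each time, and 1 arm was called in 38. By arm, 25 of 273 tested 5p miRNAs were upregulated (9.16%) and 18 downregulated (6.59%), and 18 of 316 tested 3p miRNAs were upregulated (5.70%) and 25 downregulated (7.91%), against 7.47% and 8.27% over all tested miRNAs.

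**Figure D5:**
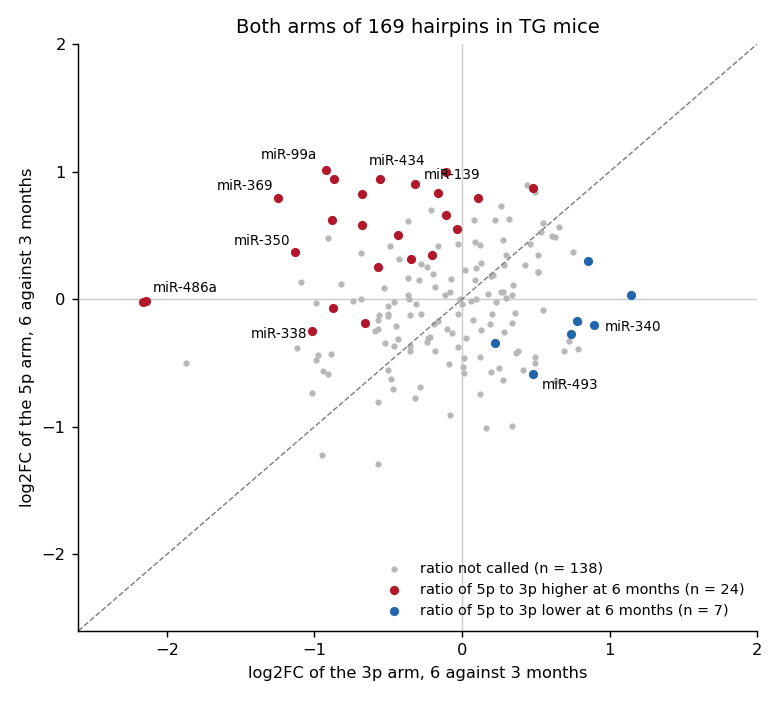
Log2FC between 6 and 3 months of the 5p arm (y axis) against that of the 3p arm (x axis) in 169 hairpins of TG mice. Red and blue points are the 24 and 7 hairpins whose 5p to 3p ratio differed between the ages, and the dashed line marks equal change of both arms.

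Of 141 tested miRNAs that share a seed with another, 28 were called (19.9%, against 15.7% of all tested miRNAs). Of 54 seeds held by at least 2 tested miRNAs, 6 had 2 or more called members, in 1 direction for 4 seeds. These were miR-204-5p with miR-211-5p and miR-24-1-5p with miR-24-2-5p, which were upregulated, and miR-190a-5p with miR-190b-5p and 3 of 11 miRNAs with the let-7 seed, which were downregulated. Of those called with the let-7 seed, let-7g-5p and miR-98-5p are among the decreases that the study named. The miR-190 pair was named because of its seed, with log2FC of -1.38 and -0.85 at medians of 9.45 and 2.67 CPM at 3 months and 2.61 and 1.21 CPM at 6 months. In the other 2 seeds, the called members opposed each other, as in miR-326-3p (log2FC -0.68) and miR-330-5p (log2FC 0.79). The median GC content was 40.9% in 41 downregulated miRNAs with a sequence, 47.6% in 42 upregulated miRNAs and 50% in 458 that were not called. A first base of U was found in 58.5%, 40.5% and 40.8% of them. Across these 541 miRNAs, which share the same libraries, log2FC had a Spearman correlation of 0.15 with GC content and of -0.57 with the loading on the first principal component.

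Mice were more dispersed at 3 than at 6 months for 412 of 629 miRNAs (65.5%), with a median SD of log2 CPM of 0.62 at 3 months and 0.52 at 6 months. Each mouse's median absolute deviation from the median of the other mice of its age was 0.56 ± 0.24 (SD, n = 9) at 3 months and 0.39 ± 0.12 (SD, n = 11) at 6 months. The difference of 0.17 did not pass the test (two-sided exact permutation test, p = 0.0523). The deviations were computed once within each age and not again in each permutation, so the p-values of this test are approximate. Mouse 3 deviated most at 3 months, by 1.05, and mouse 9, the smallest library, at 6 months, by 0.704. Without 3-month mouse 3, the difference was 0.051 (two-sided exact permutation test, p = 0.556), whereas it was 0.18 to 0.25 and passed the test without each one of 3-month mice 4, 5, 6, 7 and 9 and 6-month mice 9 and 10.

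In wild-type control mice, the same fit called 1 of 660 miRNAs (0.152%), whereas DESeq2 called 25 of them and a fit with a replicate block 245 of 597. The interaction of age and genotype was called in 0 of 699 (0.0%), with 14 at an unadjusted p under 0.05 by edgeR and 18 by DESeq2. With a replicate block, 0 of 652 were called, but 161 had an unadjusted p under 0.05 and the smallest adjusted p was 0.148 (edgeR). The replicate numbers were not taken to pair the mice. Wild-type control mice are separate from the TG mice, but only 5 were 3 months old. The genotype field of 2 of these 5 gives TG, against their titles, and without them 1 of 673 was called. Side by side, log2FC in TG and wild-type control mice were 1.01 and 0.65 for miR-99a-5p, 0.68 and 0.63 for miR-451a, 0.94 and 0.74 for miR-29c-5p and -0.85 and -0.77 for miR-298-5p. They lay further apart for miR-126a-3p (0.73 and 0.27), miR-30d-5p (0.55 and 0.13), miR-758-3p (0.99 and 0.31), miR-338-3p (-1.02 and -0.26) and miR-101a-3p (-0.69 and -0.25). Of the 99 called miRNAs, 49 (49.5%) had an unadjusted p under 0.05 in wild-type control mice, against 102 of 660 tested there (15.5%). In all 99, log2FC had the same sign in wild-type control mice, as it had in 513 of the 628 miRNAs tested in both genotypes (81.7%). Total miRNA counts in these mice were 8215532 to 19610629 at 3 months and 2080504 to 15596315 at 6 months. For the interaction without a block, 8 of the 99 had an unadjusted p under 0.05 by edgeR. The smallest adjusted p among the 99 was 0.986 in this fit (edgeR), so that no difference between the genotypes was shown for any of these miRNAs. The 99 were selected on the difference in TG mice, which also enters the interaction.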

How the data were processed

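Small RNA of the hippocampal CA1 region was sequenced with the NEBNext kit, 1 library per mouse. The submitters' processing notes name bcl2fastq (version 2.20.2), FastQC (version 0.11.5) and cutadapt (version 2.8). The authors mapped and counted reads with mirdeep2 against mm10 and miRBase. The deposited values are raw counts for every pair of mature miRNA and precursor. The authors used DESeq2 with RUVSeq, and their normalized table was not used here.

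Groups followed the sample titles. Where a mature miRNA (1978 in all) had several precursors, the one with most reads was kept, and 52 spike-in entries were left out. TG mice were compared with edgeR (version 4.0.16, R 4.3.3) using filterByExpr (minimum count 10, minimum total 15), TMM factors and the robust quasi-likelihood test with Benjamini-Hochberg adjustment, and wild-type control mice and the interaction likewise. Calls required an adjusted p under 0.05 with log2FC beyond 0.26 in either direction. Levels are TMM-normalized CPM. Arm ratios (each arm with a mean of at least 10 reads) were tested with limma (version 3.58.1), and single values per mouse with exact permutation tests (scipy version 1.17.1), or with 100000 resamples for correlations over mice (smallest p 1e-05). P-values measure the spread between mice. The tests were checked on simulated counts, and no library was a copy of another. Reads had no molecular identifiers.

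Named miRNAs were the 12 largest increases and decreases at a mean of at least 10 CPM, the 5 most abundant in each direction, up to 4 called members of each of 37 groups (or its most abundant tested member) and the 5 largest ratio differences in each direction, leaving the study's 22 out of the first and second parts. Members and groups were chosen with earlier results of these data known. Alternatives were RLE or total-count scaling, other filters, DESeq2 (version 1.42.0) with and without 2 RUVr factors, 1 spike-in (RUVg) factor, summed precursors, thinning, a joint fit, a replicate block, adding the 2 mice of conflicting genotype, and fewer mice. Positions came from GENCODE and sequences from RefSeq (GRCm38.p6).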

Additional observations from a re-analysis of the deposited data

Results flagged for a closer look

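In 103 sets of values of the 9 TG mice at 3 months, 22 had a highest or lowest mouse separated from the nearest other mouse by more than 0.493 of the whole range, which chance gives in about 1 in 20 sets. Mouse 8 accounted for 14 of them, mouse 3 for 7 and mouse 2 for 1. The sets share the same mice and are not independent, and no explanation was tested.

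Mouse 8 was the highest 3-month mouse for 11 upregulated miRNAs, each time nearer to or within the 6-month levels. Its level was 22535 CPM for miR-30d-5p (next highest 12562), 10362 CPM for miR-30a-5p, 9264 CPM for miR-126a-3p, 4490 CPM for miR-139-5p, 1680 CPM for miR-146b-5p and 729 CPM for miR-495-3p. For the less abundant miRNAs it was 341 CPM for miR-451a, 264 CPM for miR-340-3p, 72.4 CPM for miR-24-1-5p, 63.6 CPM for miR-29c-5p and 50.2 CPM for miR-758-3p. Its log2 ratio of 5p to 3p reads was 5.68 for miR-486a and 8.30 for miR-486b, both the highest at 3 months, and 3.65 for miR-493, the lowest.

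Mouse 3 was the highest 3-month mouse for miR-382-5p (2114 CPM, next highest 1416) and for 6 miRNAs that were not called: miR-92b-3p (3402 CPM), miR-486a-5p (1121 CPM), miR-486b-5p (1174 CPM), miR-130b-5p (70.6 CPM), miR-12184-5p (7.77 CPM) and miR-5129-5p (4.90 CPM). Mouse 2 was the highest for miR-101a-3p, at 5442 CPM against 4377 CPM in the next mouse.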

How the results depend on the processing

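In TG mice, the count of altered miRNAs was 72 to 131 without each mouse in turn, 221 (116 upregulated) with 1 RUVg factor from the spike-in oligos, 312 (144 upregulated) with 2 RUVr factors in DESeq2, and 70 of 1621 tested without a low-count filter. Settings added after the data were examined gave 315 without 3-month mice 1, 2 and 3, and 74 without 6-month mice 8 and 9, the smallest libraries. The other counts were within 1.5 times 99. Of the 99, 66 were called without each mouse in turn and 45 under every alternative to the processing that tested them. The 68 named called miRNAs and 10 named hairpins kept their direction throughout, and 334 of 2546 refitted values no longer passed the test. Without 3-month mice 1, 2 and 3, miR-486a-5p and miR-486b-5p, which were not called, had a log2FC of 0.59 and 0.59 and passed the test.

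The count of altered arm ratios was 22 to 37 without each mouse and 69 without 3-month mice 1, 2 and 3. In wild-type control mice, the count was 25 with DESeq2 and 0 to 4 without each 3-month-old mouse. The interaction gave 0 in each of 4 fits. Of 37 groups, 13 had a median log2FC above 0, against 6 with the total miRNA count, 8 without a low-count filter and 11 to 16 without each mouse. The difference in spread between mice was 0.051 to 0.25 without each mouse, and 0.18 (two-sided exact permutation test, p = 0.0234) at a mean of at least 100 CPM. The causes of these shifts were not tested.

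Same-numbered TG mice of the 2 ages correlated in their deviations by over 0.1 in 7 of 9 pairs (range -0.57 to 0.73), and 2 of 9 mice correlated best with their own number, so the numbers were not taken to pair the mice. Fits with a replicate block called 121 miRNAs (64 upregulated) and 37 arm ratios in TG mice, 245 miRNAs in wild-type control mice and 0 on the interaction. Depth limited miRNAs under about 2.07 CPM, the level of 3 reads in the smallest library, and 29 of the 99 had a mean under 10 CPM.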
